A study of Arabidopsis thaliana with 64 samples.

Results

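The expression of 10 genes of root hair development was followed in Arabidopsis roots. They comprise 4 transcription factor genes (RHD6, RSL1, RSL2 and RSL4), the NADPH oxidase gene RHD2 and 5 genes of wall proteins (LRX1, LRX2, EXPA7, EXPA18 and PRP3). The genes were chosen by name as regulators of hairs and as wall genes of hair cells, and each of the 10 has a probe among the 26795 genes on the array. The loci are AT1G66470 (RHD6), AT5G37800 (RSL1), AT4G33880 (RSL2), AT1G27740 (RSL4), AT5G51060 (RHD2), AT1G12040 (LRX1), AT1G62440 (LRX2), AT1G12560 (EXPA7), AT1G62980 (EXPA18) and AT3G62680 (PRP3). Of these, 6 lie on chromosome 1, 2 on chromosome 5, 1 on chromosome 3 and 1 on chromosome 4.

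All plants were Arabidopsis grown on MS-based agar, either sufficient or deficient in inorganic phosphate (Pi), and the wild type (WT) was Col-0 throughout. In the hy5 set, roots and leaves of hy5-215, a mutant obtained by chemical mutagenesis in the gene of the light-signalling bZIP factor HY5, were compared with those of WT plants at 4 weeks under white light. In the BBX32-SRDX set the same comparison was made with plants carrying 35S::BBX32-SRDX::NOSter (35S:BBX32-SRDX below), in which the 35S promoter drives, in most cells, the B-box protein BBX32 fused to the SRDX repression domain. In the light set, WT roots and shoots of seedlings of 3 weeks were compared between blue and red light. The white-light sets hold 3 biological replicates per group and the light set 2, giving 32 root arrays and 32 arrays of leaves or shoots, called shoots here. Which 35S:BBX32-SRDX line was hybridised is not given in the sources used here.

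Root hairs are tubular outgrowths of single epidermal cells that enlarge the surface through which a root takes up immobile nutrients such as phosphate, and low phosphate is known to make them longer and denser. In the hair cell lineage the class I bHLH factors RHD6 and RSL1 start the programme, and the class II factors RSL2 and RSL4 act after them, RSL4 setting how long a hair grows. At the growing tip the oxidase encoded by RHD2 produces reactive oxygen species, while expansins, leucine-rich repeat extensins (LRX) and proline-rich proteins are laid into the new wall.

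The values below are log2 signals of a gene's brightest probe relative to the 75th percentile of its array, so that a positive value lies above that percentile. The signal at the 75th percentile of the root arrays was between 2767 and 7651 in the white-light sets and between 97.02 and 265.8 in the light set, where 57.0% to 66.7% of probes were well above background against 74.0% to 83.7%. All 120 root values of the 10 genes in each white-light set were well above background, as were 79 of 80 in the light set, and none was saturated. The labels of the root arrays were checked on the targeted genes. HY5 lay between -0.90 and -0.37 in the hy5-215 roots and between 1.11 and 1.64 in the WT roots of that set, and the BBX32 probe between 5.02 and 6.13 in the 35S:BBX32-SRDX roots and between -5.92 and -1.91 in their WT, the highest being 1 Pi-deficient array. In shoots HY5 did not separate the lines, with means of -1.29 and -1.41 in hy5-215 and -1.26 and -1.37 in the WT (Pi sufficient and Pi deficient). The check therefore does not cover the hy5-215 shoots. BBX32 did separate them, at 4.55 and 4.56 in 35S:BBX32-SRDX shoots and -4.31 and -3.65 in their WT. The roots also carried transcripts of photosynthesis. All 8 genes of a leaf list (small subunits of Rubisco, light-harvesting proteins and Rubisco activase) were well above background on all 24 white-light root arrays, and between 4 and 8 of them on the arrays of the light set. A whole root was measured, so fewer hairs and less transcript per hair cannot be told apart.

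**Figure D1:**
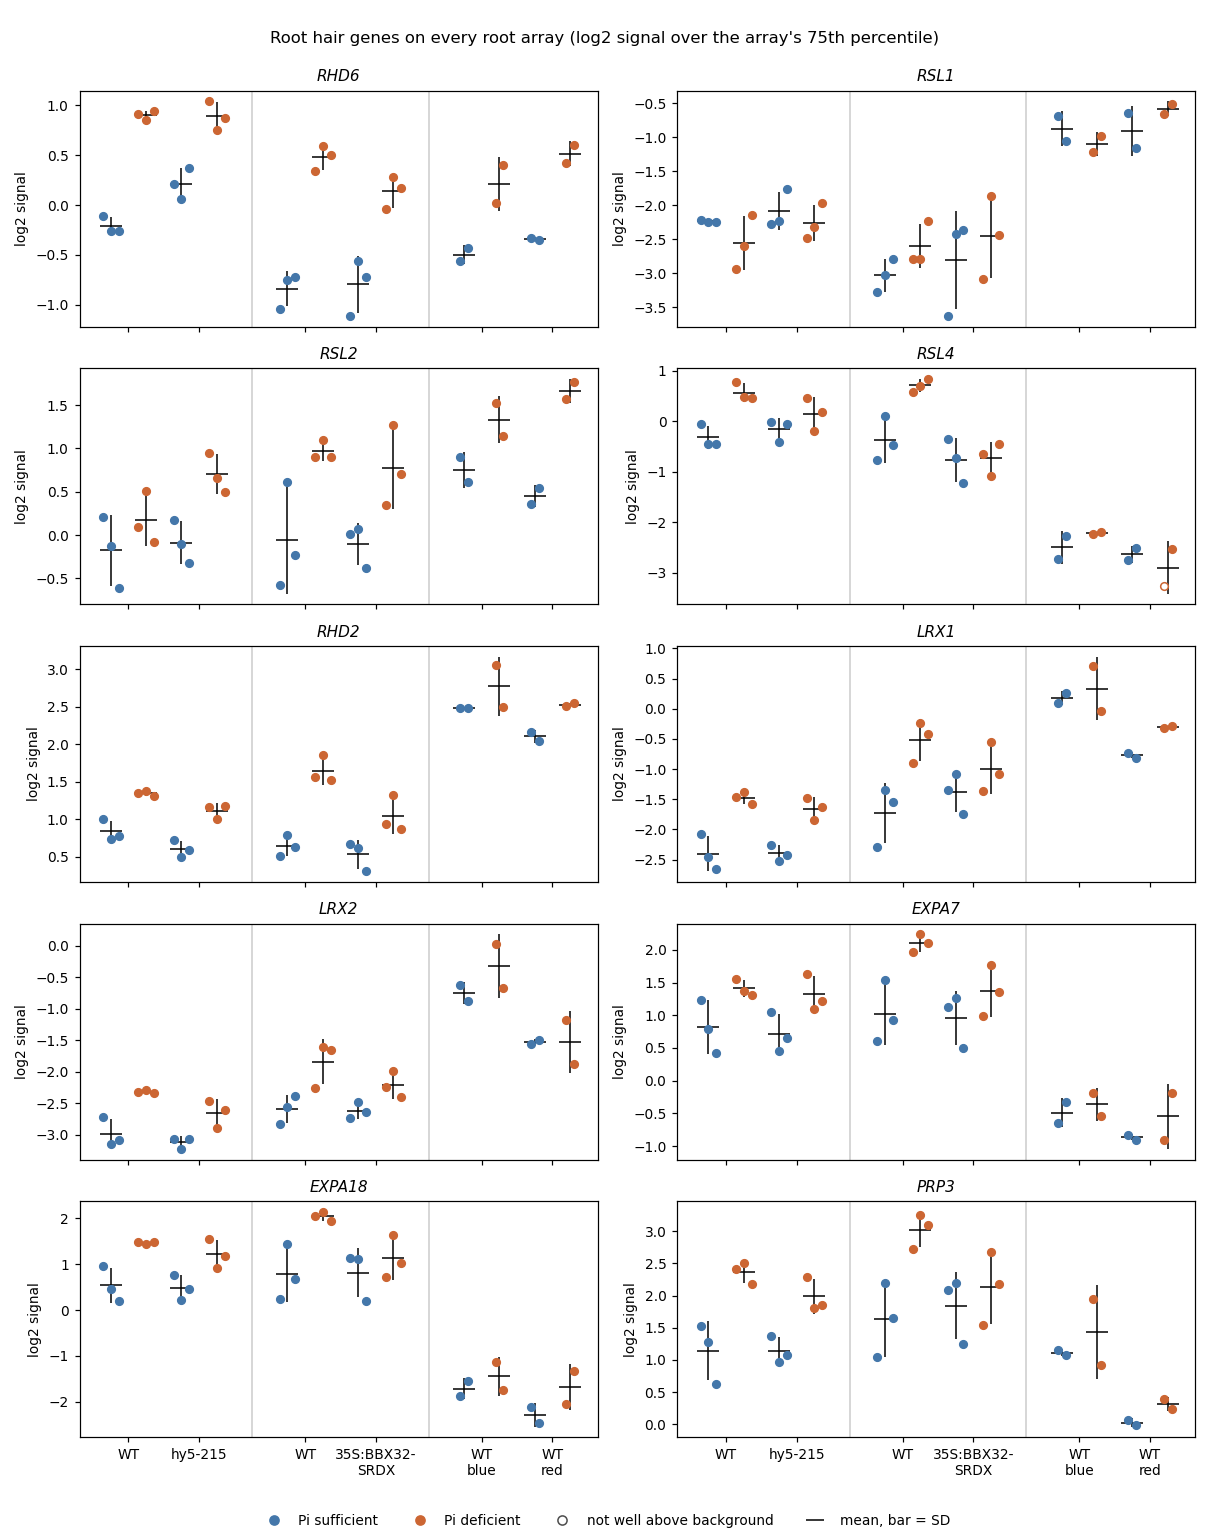
Log2 signal over the 75th percentile of the array (vertical axis of each panel) of the 10 genes on each of the 32 root arrays, by line or light (horizontal axis, hy5 set left, BBX32-SRDX set middle, light set right) and Pi supply (colour). The black mark is the mean and its bar the SD of 3 or 2 arrays, and the open point was not well above background. RHD6 is higher on every Pi-deficient array than on every Pi-sufficient array of its line or light in all 3 sets, and RSL1 in none of the white-light groups.

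In WT roots under white light, Pi deficiency went with higher levels of most of the 10 genes. In the hy5 set 9 of 10 were higher under Pi deficiency and 7 of them passed the test (adjusted p under 0.05 by limma over 22017 genes). In the BBX32-SRDX set all 10 were higher and 9 passed. The median log2 fold change of the 10 genes was 0.78 and 1.08, where the median of all genes tested was 0.01 and 0.02. Among all genes tested, 13.0% and 6.44% passed in the higher direction. The WT plants of the sets were separate samples, and 7 genes (RHD6, RSL4, RHD2, LRX1, LRX2, EXPA18 and PRP3) passed in both, as did 5.09% of the genes tested in both.

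RHD6, the class I factor without which most hairs fail to form, showed the clearest separation. In the hy5 set its log2 signal was 0.92, 0.85 and 0.94 in Pi-deficient WT roots and -0.11, -0.26 and -0.26 in Pi-sufficient ones. The groups did not overlap and differed 2.16-fold (log2 fold change 1.11, SE 0.10, adjusted p = 5.2e-05). The WT of the BBX32-SRDX set read 0.34, 0.59 and 0.51 against -1.04, -0.75 and -0.72, a 2.5-fold difference (log2 1.32, SE 0.16, adjusted p = 0.000589). Its paralog RSL1 did not move with it. Its values in the hy5 set were -2.93, -2.60 and -2.14 under Pi deficiency and -2.21, -2.25 and -2.24 under Pi sufficiency, and they differed by -0.32 on the log2 scale (SE 0.21, adjusted p = 0.294). The other WT cohort gave 0.43 (SE 0.38, adjusted p = 0.531), and the groups overlapped in both sets.

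The class II factor RSL4 read 0.78, 0.47 and 0.45 in Pi-deficient WT roots of the hy5 set and -0.06, -0.46 and -0.45 in Pi-sufficient ones (log2 fold change 0.89, SE 0.19, adjusted p = 0.00604). The other cohort read 0.58, 0.70 and 0.83 against -0.77, 0.09 and -0.46 (1.09, SE 0.27, adjusted p = 0.022). All Pi-deficient arrays lay above all Pi-sufficient ones in each set. RSL2, the other class II factor, passed in 1 WT cohort. It changed by 1.03 (SE 0.30, adjusted p = 0.0468) in the BBX32-SRDX set, where its Pi-deficient arrays at 0.90, 1.1 and 0.90 stood above a wide Pi-sufficient group at -0.58, 0.62 and -0.23. In the hy5 set its change was 0.35 (SE 0.23, adjusted p = 0.3) and the groups overlapped.

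Of the genes that act in the growing hair, the oxidase gene RHD2 was at 1.35, 1.38 and 1.31 in Pi-deficient and at 1.0, 0.74 and 0.78 in Pi-sufficient WT roots of the hy5 set. The difference was 0.51 and larger than the spread (SE 0.09, adjusted p = 0.00233). The WT of the BBX32-SRDX set stood at 1.56, 1.86 and 1.52 against 0.51, 0.79 and 0.63 (1.0, SE 0.15, adjusted p = 0.00243). Among the wall genes the proline-rich protein gene PRP3 gave the largest fold changes of the 10 in both WT cohorts, 2.34-fold (log2 1.22, SE 0.22, adjusted p = 0.00299) and 2.62-fold (log2 1.39, SE 0.37, adjusted p = 0.0306). Its signals were 2.42, 2.5 and 2.18 under Pi deficiency and 1.53, 1.27 and 0.63 under Pi sufficiency in the hy5 set. The other cohort gave 2.72, 3.25 and 3.1 against 1.04, 2.20 and 1.65, again without overlap.

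LRX1 and LRX2, paralogous extensins that shape the hair wall, rose by 0.92 (adjusted p = 0.00154) and 0.67 (adjusted p = 0.00414) in the hy5 set and by 1.21 (adjusted p = 0.0224) and 0.75 (adjusted p = 0.0236) in the BBX32-SRDX set. The hair expansin gene EXPA18 rose by 0.93 (adjusted p = 0.00978) and 1.26 (adjusted p = 0.0347). Its relative EXPA7 rose by 1.08 (adjusted p = 0.0279) in the BBX32-SRDX set and gave 0.60 (SE 0.23, adjusted p = 0.0778) in the hy5 set, where the test with the slide as a block gave an adjusted p of 0.00615. The Pi-deficient arrays lay above all Pi-sufficient ones for 8 of the 10 genes in the hy5 set, where 20.9% of all genes did so, for 9 in the BBX32-SRDX set (15.0%), and for 8 in both (10.2%).

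In fits without the slide as a block, the counts of the 2 cohorts were not equally firm. Leaving out 1 array at a time, 7 to 8 genes passed in the hy5 set. Of the 9 genes of the BBX32-SRDX set, RHD6 and RHD2 alone passed without Pi-deficient replicate 2, without Pi-deficient replicate 3 or without Pi-sufficient replicate 1, and 4 genes without Pi-sufficient replicate 3. Without 1 of these 4 arrays the median log2 fold change of the 10 was between 0.91 and 1.07. With all arrays kept and the slide as a block, the same 9 genes of the BBX32-SRDX set passed (adjusted p between 2.3e-05 and 0.0228). The same fit called 8 genes in the hy5 set. Blocked fits were not repeated with arrays left out, and their share of all genes was not determined for the WT. Without the block, a further limit of a 2-fold change left 2 genes (RHD6 and PRP3) in the hy5 set. The leaf list was lower under Pi deficiency in both WT cohorts (8 of 8 genes lower in each, 2 and 0 passing), its summed log2 level lying between 2.94 and 5.29 against 4.72 and 4.92 in the hy5 set and between 3.58 and 4.90 against 5.08 and 5.52 in the BBX32-SRDX set, and its part in the result was not tested.

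**Figure D2:**
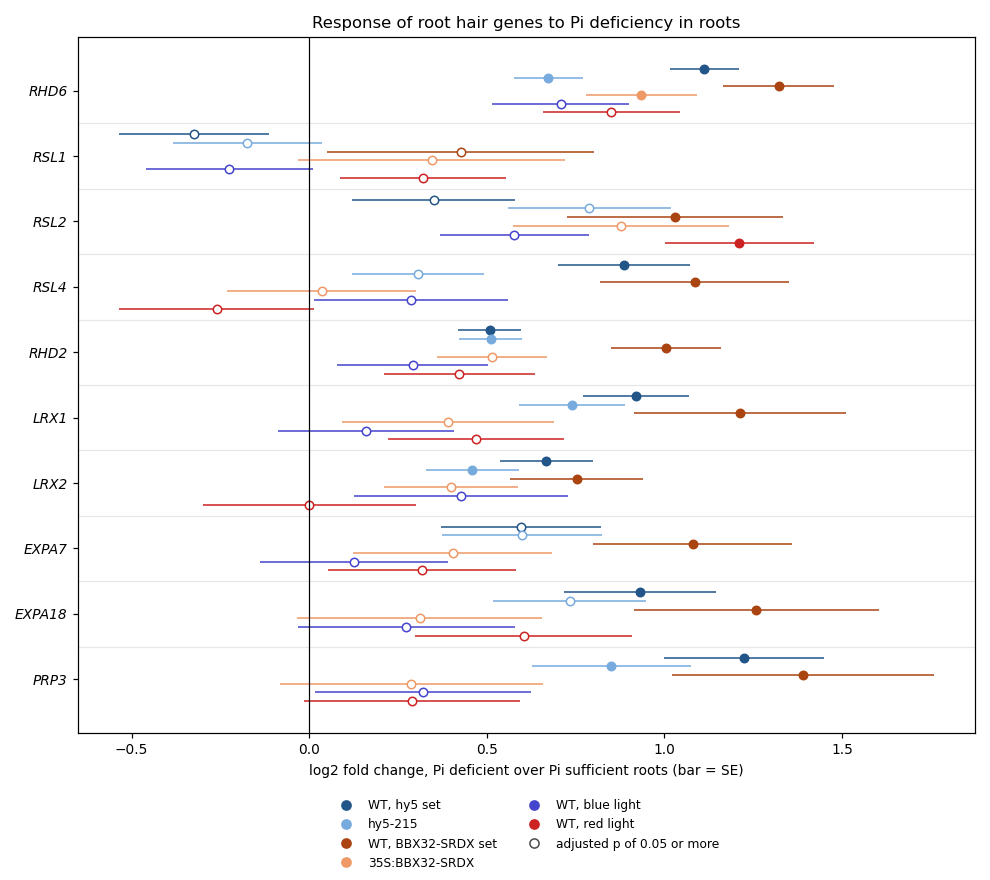
Log2 fold change of Pi-deficient over Pi-sufficient roots (horizontal axis, bar = SE) of each gene (vertical axis) in the 6 line or light groups, with filled points for adjusted p under 0.05 by limma. The WT of the BBX32-SRDX set holds 9 filled points, the WT of the hy5 set 7, hy5-215 holds 5, and 35S:BBX32-SRDX and red light 1 each.

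In hy5-215 roots 9 of 10 genes were higher under Pi deficiency and 5 passed, RHD6 (0.67, SE 0.10, adjusted p = 0.00236), RHD2 (0.51, SE 0.09, adjusted p = 0.00554), LRX1 (0.74, SE 0.15, adjusted p = 0.0109), LRX2 (0.46, SE 0.13, adjusted p = 0.0451) and PRP3 (0.85, SE 0.22, adjusted p = 0.0347). The share of all genes that passed in that direction was 6.24%. The median of the 10 was 0.64 and that of all genes -0.02. The arrays of a replicate number share a slide and deviated together in this set, and with the slide as a block 9 genes passed, all higher, against 11.6% of all genes. RSL1 was the exception, with -0.17 (SE 0.21) without the block. Without 1 array of 4 of the 6 (Pi-deficient replicate 1 or 3, Pi-sufficient replicate 2 or 3), RHD6, RHD2 and LRX1 were the 3 that passed.

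RSL4 changed less with Pi supply here than in the WT, but the difference did not pass. It read 0.46, -0.19 and 0.17 in Pi-deficient and -0.01, -0.41 and -0.05 in Pi-sufficient hy5-215 roots, a change of 0.31 (SE 0.19, adjusted p = 0.353), with overlapping groups. The difference of its Pi response between hy5-215 and the WT was -0.58 (SE 0.26, adjusted p = 0.493). For RHD6 that difference was -0.44 (SE 0.14, adjusted p = 0.267), the lowest adjusted p of the 10. None of the 10 genes passed the test of a difference in Pi response between hy5-215 and the WT, and 0.550% of all genes did. An unadjusted p under 0.05 was found for 1 of the 10. With the slide as a block none passed either, the adjusted p being 0.0648 for RSL4 and 0.0727 for RHD6.

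In 35S:BBX32-SRDX roots the response to Pi deficiency was positive for all 10 genes but passed for RHD6 alone, and 2.84% of all genes passed in that direction. RHD6 read -0.04, 0.29 and 0.17 in Pi-deficient and -1.11, -0.56 and -0.72 in Pi-sufficient roots of the line, a change of 0.94 (SE 0.16, adjusted p = 0.0075). RSL4 was the member with the smallest change, at -0.66, -1.09 and -0.46 against -0.35, -0.73 and -1.23 (0.04, SE 0.27, adjusted p = 0.969). The median of the 10 was 0.40, where the WT of the same set had 1.08. With the slide as a block, RSL2 (0.88, SE 0.21, adjusted p = 0.0224) and RHD2 (0.52, SE 0.10, adjusted p = 0.00988) passed beside RHD6, so 3 genes against 7.59% of all genes.

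All 10 genes had a smaller change with Pi supply in the line than in its WT, with a median difference of -0.58 on the log2 scale where all genes had 0.00. None passed the test of this difference by limma, and 0.0711% of all genes did. The largest differences were -1.1 for PRP3 (SE 0.52, adjusted p = 0.882), -1.05 for RSL4 (SE 0.38, adjusted p = 0.657) and -0.95 for EXPA18 (SE 0.49, adjusted p = 0.947), and 2 of 10 genes had an unadjusted p under 0.05. The leaf list fell under Pi deficiency in this line, with 6 of 8 genes passing, from a summed level between 3.22 and 4.97 to one between 1.55 and 2.71, and its part was not tested.

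The lines were also compared with the WT at the same Pi supply, from the same arrays. In Pi-deficient roots 35S:BBX32-SRDX had lower levels than the WT for 9 of 10 genes, all but RSL1, with a median of -0.54 against 0.03 for all genes. RSL4 and RHD2 passed, whereas 5.10% of all genes passed in the lower direction. RSL4 read -0.66, -1.09 and -0.46 in the line against 0.58, 0.70 and 0.83 in the WT, all line arrays lying below all WT arrays. It was 2.71-fold lower (log2 -1.44, SE 0.27, adjusted p = 0.00693) and passed in each of the 6 fits that left out 1 array. RHD2 read 0.94, 1.32 and 0.88 against 1.56, 1.86 and 1.52 (-0.60, SE 0.15, adjusted p = 0.0337), and lost its call without WT replicate 1, 2 or 3 or without line replicate 1 or 3, the adjusted p then lying between 0.0526 and 0.13.

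A further 4 genes had line arrays that all lay below the WT arrays without passing, so that 6 of 10 had no overlap, against 11.9% of all genes. The 4 were RHD6 (-0.34, SE 0.16, adjusted p = 0.233), EXPA7 (-0.74, SE 0.28, adjusted p = 0.141), EXPA18 (-0.91, SE 0.34, adjusted p = 0.138) and PRP3 (-0.89, SE 0.37, adjusted p = 0.183). The expansin EXPA18, for example, read 0.72, 1.64 and 1.03 in the line and 2.06, 2.13 and 1.94 in the WT. With the slide as a block all 4 passed beside RSL4 and RHD2, with adjusted p between 0.0113 and 0.0463 for the 4, making 6 of 10 genes lower against 10.3% of all genes. LRX1 (-0.48), LRX2 (-0.37), RSL2 (-0.19) and RSL1 (0.14) passed in neither fit. All 8 genes of the leaf list were lower in the line and 7 passed, with summed levels between 1.55 and 2.71 against 3.58 and 4.90, and SUC2, a sucrose transporter of the phloem, was 1.19 higher (adjusted p = 0.0128). Their part in the result was not tested.

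In Pi-sufficient roots of the same set no difference of these genes passed. The log2 fold changes of 35S:BBX32-SRDX over the WT were between -0.39 (RSL4) and 0.34 (LRX1), 5 up and 5 down, with a median of 0.01. None of the 10 passed by limma, 0 had an unadjusted p under 0.05, and 1.05% of all genes passed.

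For hy5-215, under Pi deficiency 8 of 10 genes were lower than in the WT, with a median of -0.21 against -0.01 for all genes. None passed by limma, although 4 had an unadjusted p under 0.05 and 18.7% of all genes passed in either direction. RSL4 was at 0.46, -0.19 and 0.17 in hy5-215 and at 0.78, 0.47 and 0.45 in the WT, with 1 mutant array inside the WT range (-0.42, SE 0.19, adjusted p = 0.163). RHD2 read 1.16, 1.0 and 1.18 against 1.35, 1.38 and 1.31, without overlap (-0.23, SE 0.09, adjusted p = 0.103), and LRX2 -2.46, -2.89 and -2.61 against -2.32, -2.28 and -2.34, also without overlap (-0.34, SE 0.13, adjusted p = 0.105), as were the arrays of 18.5% of all genes in this direction.

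With the slide as a block, RSL4, RHD2 and LRX2 passed as lower in Pi-deficient hy5-215 roots (adjusted p = 0.0119, 0.0302 and 0.0331), where 16.0% of all genes did. RSL2 passed as higher in that fit (0.53, SE 0.15, adjusted p = 0.028), as did 16.4% of all genes. Its values were 0.95, 0.66 and 0.50 in hy5-215 and 0.09, 0.50 and -0.08 in the WT, where 1 mutant array met the WT range. The leaf list was lower in hy5-215 at both Pi levels (7 of 8 genes passing at each), with summed levels between 1.26 and 2.29 against 2.94 and 5.29 over both Pi levels. Of the 12 genes that mark other root cells, 3 passed as higher and 1 as lower in hy5-215 at each Pi level. Of all genes, 18.7% under Pi deficiency and 14.5% under Pi sufficiency passed in either direction. SHR (0.24), SUC2 (0.81) and the secondary wall gene IRX3 (0.51) were higher and AT1G62500 (-1.13) lower under Pi deficiency, and the summed level of the 12 was between 4.43 and 4.58 against 4.13 and 4.23 in the WT. The part of either list in the result was not tested.

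Under Pi sufficiency 1 gene passed, RHD6, which was higher in hy5-215, and 14.5% of all genes passed. It read 0.21, 0.06 and 0.38 in the mutant and -0.11, -0.26 and -0.26 in the WT, a 1.34-fold difference (0.43, SE 0.10, adjusted p = 0.0159). The arrays of the lines did not overlap, but the call was lost without hy5-215 replicate 3 or without WT replicate 2 or 3 (adjusted p between 0.0543 and 0.063). With the slide as a block RHD2 passed as lower (-0.24, SE 0.07, adjusted p = 0.0345), making 2 genes against 25.9% of all genes.

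**Figure D3:**
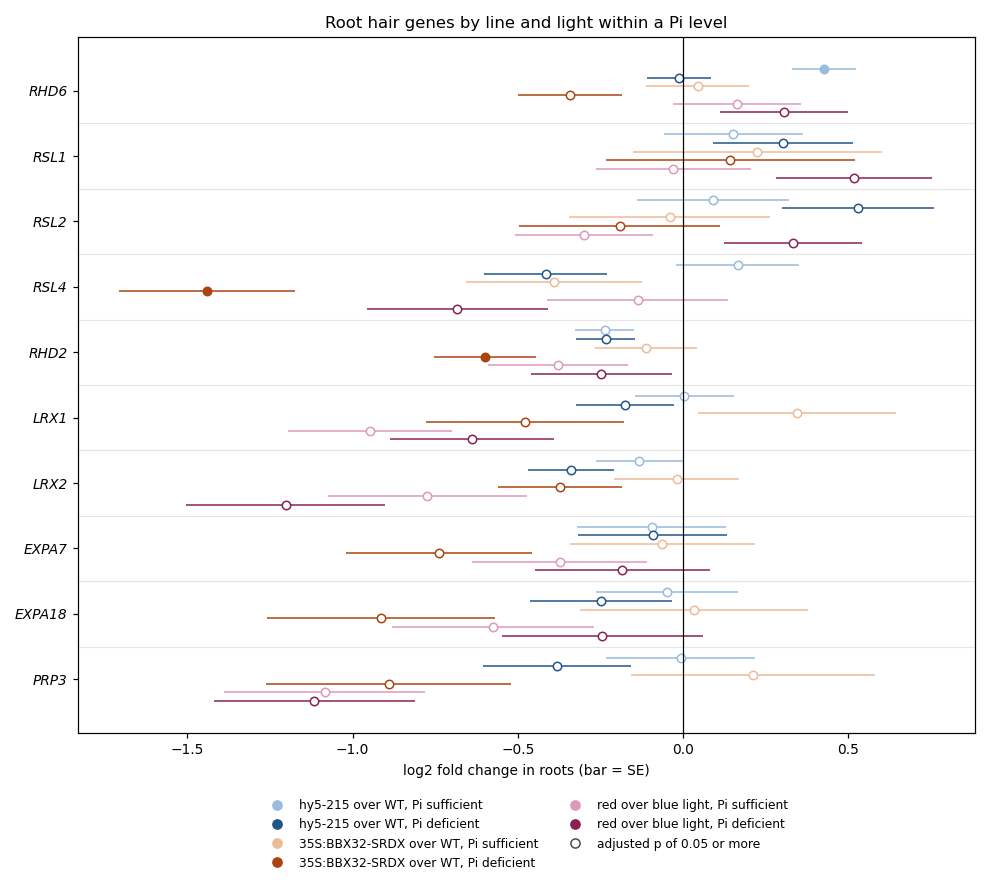
Log2 fold change in roots (horizontal axis, bar = SE) of each gene (vertical axis) between lines, or between red and blue light, at the same Pi supply, with filled points for adjusted p under 0.05 by limma. The filled points are RSL4 and RHD2 in Pi-deficient 35S:BBX32-SRDX and RHD6 in Pi-sufficient hy5-215.

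Under monochromatic light the arrays of RHD6, RSL2 and RHD2 separated by Pi supply under both lights. At both Pi supplies the red-light arrays of LRX1, LRX2 and PRP3 lay below the blue-light ones, and those of RHD6 above. The share of all genes that separated in both lights or at both Pi supplies was not determined, and 1 difference of the 10 genes passed a test. Pi-deficient arrays lay above all Pi-sufficient ones for 4 genes in blue and 6 in red light, against 19.4% and 16.6% of all genes. The light set has 2 arrays per group and a dimmer signal. RHD6 read 0.02 and 0.40 under Pi deficiency and -0.56 and -0.43 under Pi sufficiency in blue light (0.71, SE 0.19, adjusted p = 0.0629). In red light it read 0.43 and 0.60 against -0.33 and -0.35 (0.85, SE 0.19, adjusted p = 0.0634). Neither comparison overlapped, and neither passed. RHD6 passed in both with the slide as a block, with an adjusted p of 0.0397 in blue and 0.0351 in red light, where 5.57% and 3.38% of all genes passed as higher.

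RSL2 read 1.57 and 1.76 in Pi-deficient and 0.36 and 0.54 in Pi-sufficient roots under red light, 2.31-fold apart (1.21, SE 0.21, adjusted p = 0.0208). It was the 1 gene of the 10 to pass there, while 2.37% of all genes passed as higher, and without any 1 of the 4 arrays none did (adjusted p between 0.103 and 0.193). In blue light RSL2 read 1.52 and 1.14 against 0.90 and 0.61 (0.58, SE 0.21, adjusted p = 0.139). No gene of the 10 passed in blue light by limma, 2 having an unadjusted p under 0.05, where 3.85% of all genes passed as higher. RSL4 was close to background in this set, with values between -3.27 and -2.20, and its changes of 0.29 in blue and -0.26 in red light had SEs of 0.27.

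No wall gene passed for Pi supply under monochromatic light. The changes of LRX1, LRX2, EXPA7, EXPA18 and PRP3 were between 0.13 and 0.43 in blue light and between 0.00 and 0.60 in red light, with a lowest adjusted p of 0.423 in blue and 0.548 in red light. The PRP3 probe used read 1.95 and 0.92 in Pi-deficient and 1.15 and 1.07 in Pi-sufficient roots in blue light, a spread that its second probe did not share. The medians over the 10 genes were 0.29 in blue and 0.37 in red light, those of all genes -0.08 and -0.06. In the table processed by the authors the medians of the 10 were 0.09 and 0.01, and those of all genes -0.28 and -0.44. The difference of the Pi response between the lights passed for none of the 10 genes, none had an unadjusted p under 0.05, and 1.22% of all genes passed.

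Between lights at the same Pi supply, 7 of 10 genes were lower in red light in Pi-deficient and 9 in Pi-sufficient roots. Under Pi deficiency LRX2 read -1.17 and -1.88 in red and 0.03 and -0.68 in blue light (-1.20, SE 0.30, adjusted p = 0.0543). PRP3 read 0.40 and 0.24 against 1.95 and 0.92 (-1.12, SE 0.30, adjusted p = 0.0713), and LRX1 -0.32 and -0.29 against 0.71 and -0.04 (-0.64, SE 0.25, adjusted p = 0.183). RSL4 stood at -3.27 and -2.53 against -2.23 and -2.20 (-0.68, SE 0.27, adjusted p = 0.194), the lowest value not being well above background. The red-light arrays of these 4 genes, and of 19.5% of all genes, lay below all blue-light arrays. The 3 genes that were higher in red light were RHD6 (0.30), RSL1 (0.52) and RSL2 (0.33). Their red-light arrays lay above all blue-light arrays, and the share of all genes in that direction was not determined. No gene of the 10 passed by limma, 4 had an unadjusted p under 0.05, and 6.70% of all genes passed. Without blue-light replicate 2, LRX1, LRX2 and PRP3 passed (adjusted p between 0.00822 and 0.0331). LRX2 (adjusted p = 0.0156) and PRP3 (adjusted p = 0.031) passed as lower with the slide as a block, against 3.83% of all genes.

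LRX1, LRX2 and PRP3 were lower in red light under Pi sufficiency as well. RSL4 changed by -0.14 there, and by 0.09 without blue-light replicate 2. LRX1 read -0.74 and -0.81 in red and 0.09 and 0.26 in blue light (-0.95, SE 0.25, adjusted p = 0.251), LRX2 -1.56 and -1.49 against -0.63 and -0.88 (-0.77, SE 0.30, adjusted p = 0.54), and PRP3 0.07 and -0.02 against 1.15 and 1.07 (-1.08, SE 0.30, adjusted p = 0.284). In all, 7 of 10 genes had red-light arrays entirely below the blue-light arrays, as had 18.2% of all genes. Those of RHD6 lay above (0.16). The 10 had a median of -0.38 against 0.03 for all genes, none passed, 3 had an unadjusted p under 0.05, and 0.296% of all genes passed. The summed level of the leaf list was between 1.36 and 2.79 in red and between 3.27 and 4.51 in blue light over both Pi levels, and its part was not tested.

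The 10 genes were set beside other genes of the same pathway, listed by name. Of 25 further genes of hair growth and wall (among them kinases, exchange factors of small GTPases, xyloglucan-modifying enzymes and proline-rich proteins), 18 passed as higher under Pi deficiency in WT roots of the hy5 set, 17 in those of the BBX32-SRDX set, 17 in hy5-215 and 0 in 35S:BBX32-SRDX, and none passed as lower. Of all genes, 13.0%, 6.44%, 6.24% and 2.84% passed as higher in these comparisons. The medians of the 25 were 0.66, 1.03, 0.61 and 0.29. In 35S:BBX32-SRDX 23 of the 25 were higher under Pi deficiency. The difference of the Pi response between this line and its WT was negative for all 25 (median -0.66) and passed for none. In Pi-deficient 35S:BBX32-SRDX roots 5.10% of all genes passed as lower than in the WT. All 25 were lower there, with a median of -0.51, and 2 passed. These were PRP1, a proline-rich wall protein like PRP3 (-2.05, SE 0.35, adjusted p = 0.00456), and RHS12 (-1.08, SE 0.29, adjusted p = 0.0373). In Pi-deficient hy5-215 roots 18.7% of all genes passed in either direction. There 18 of the 25 were lower, with a median of -0.07. PRP1 (-1.62, adjusted p = 0.0036) and PIP5K3, a lipid kinase of the hair tip (-0.54, adjusted p = 0.0286), passed. In red against blue light under Pi deficiency PRP1 (-1.96, adjusted p = 0.00701) and RHS18 (-1.41, adjusted p = 0.0191) passed as lower, where 6.70% of all genes passed in either direction.

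Of 10 genes that assign hair or non-hair fate to epidermal cells, 2 passed as higher and 2 as lower under Pi deficiency in WT roots of the hy5 set, where 27.1% of all genes passed in either direction, and 1 as higher in those of the BBX32-SRDX set, where 15.0% did. ETC1, a small MYB repressor that favours hair fate, was higher under Pi deficiency in both (1.40, adjusted p = 0.001 and 1.09, adjusted p = 0.00591), in hy5-215 (0.90, adjusted p = 0.021), in 35S:BBX32-SRDX (1.09, adjusted p = 0.0117) and in red light (1.83, adjusted p = 0.00238). GL2, the homeodomain factor of non-hair cells, was lower under Pi deficiency in the hy5 set. It changed by -0.58 (adjusted p = 0.00199) in the WT and -0.42 (adjusted p = 0.0218) in hy5-215, and by 0.17 in the WT of the BBX32-SRDX set. In the WT of the hy5 set GL3 was also higher (0.62, adjusted p = 0.0198) and TRY lower (-0.75, adjusted p = 0.00606). Of the 3 genes of the auxin route by which low Pi is known to lengthen hairs (TAA1, AUX1 and ARF19), 2 and 1 passed as higher in the WT cohorts. Of all genes, 13.0% and 6.44% passed as higher there. In each cohort 1 of the 3 was lower, without passing. ARF19, an auxin response factor, gave 0.37 (adjusted p = 0.0164) and 0.27 (adjusted p = 0.0286).

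Of 5 further bHLH genes, LRL1, LRL2, LRL3 and the loci AT2G14760 and AT5G43175, which carry no symbol in the reference annotation, 3 passed in a WT cohort. In the WT of the hy5 and BBX32-SRDX sets 27.1% and 15.0% of all genes passed in either direction. AT5G43175 rose under Pi deficiency by 1.26 (adjusted p = 0.00301) and 2.37 (adjusted p = 0.000507) in the WT of the hy5 and BBX32-SRDX sets and by 1.39 and 1.75 in hy5-215 and 35S:BBX32-SRDX. AT2G14760 went the other way, at -1.03 (adjusted p = 0.027) and -1.05 (adjusted p = 0.0335) in the WT cohorts, and was higher than the WT under Pi deficiency in hy5-215 (1.92, adjusted p = 0.00152) and in 35S:BBX32-SRDX (1.60, adjusted p = 0.00582). LRL2 rose by 0.68 (adjusted p = 0.001) in the WT of the hy5 set. Of 12 genes that mark other root cells (among them endodermis, stele, xylem, phloem, cap and meristem), none passed as higher in either WT cohort. Among the 12, 2 and 0 passed as lower, where 27.1% and 15.0% of all genes passed in either direction. The summed level of the 12 was between 4.13 and 4.23 under Pi deficiency in the WT of the hy5 set. Under Pi sufficiency it was between 4.34 and 4.62 there. In the WT of the BBX32-SRDX set it was between 4.29 and 4.64 against 4.51 and 4.78.

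In the white-light sets 9 of the 10 genes varied together from array to array. With each gene centred on its set, the correlation of a gene with the mean of the other 9 over the 24 white-light root arrays was between 0.72 (RSL4) and 0.96 (EXPA7) for 9 genes and 0.09 for RSL1. Over the 8 root arrays of the light set it was 0.21 for RHD6, 0.36 for RSL4, 0.55 for RSL2, -0.31 for RSL1 and between 0.59 (LRX2) and 0.96 (RHD2) for the other genes. The expansins EXPA7 and EXPA18 had the highest correlation of any pair, 0.98. These arrays share Pi supply, line and slide, so the correlations describe them and are not tests. In the BBX32-SRDX set the mean of the 10 was -0.77, -0.03 and -0.36 in Pi-sufficient WT roots of replicates 1, 2 and 3, and 0.49, 0.79 and 0.73 in Pi-deficient ones, so that replicate 1 was the lowest of both groups, as it was of Pi-deficient 35S:BBX32-SRDX.

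**Figure D4:**
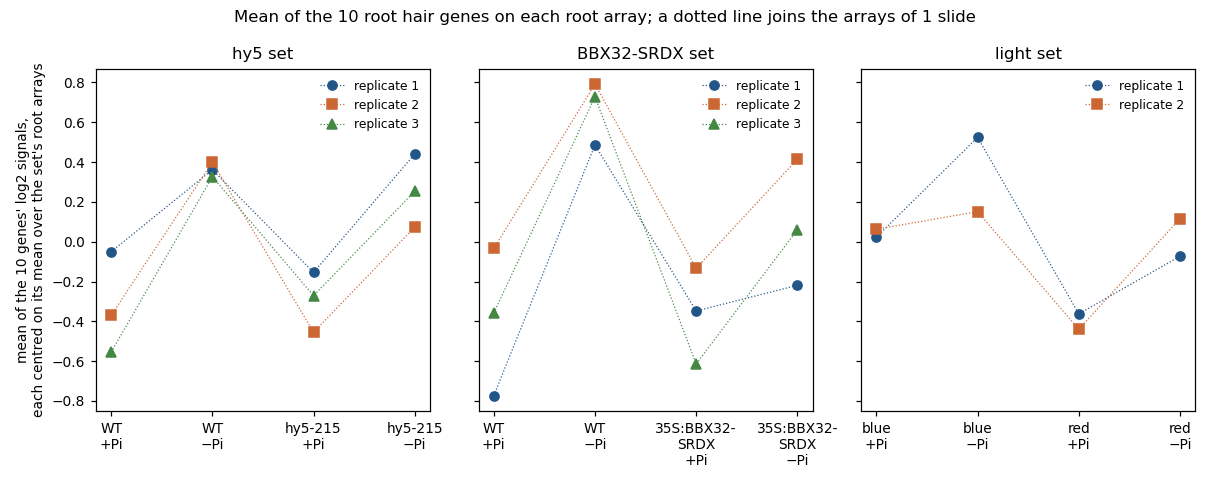
Mean log2 signal of the 10 genes (vertical axis, each gene centred on its mean over the root arrays of its set) on each root array, by group (horizontal axis). Each dotted line joins the arrays of 1 replicate number, which share a slide. Replicate 2 of the BBX32-SRDX set lies highest in all 4 groups, and the Pi-deficient WT arrays between 0.49 and 0.79 stand above the 3 Pi-deficient arrays of the line.

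Of 20239 genes well above background on all 24 arrays, those whose pattern was most like the mean of the 10 were GH9C1 (Pearson r = 0.98), IRE, NAP1;4, MOP10, AT1G59725, HA7, ADF11, EXO70C2, MES15 and AT5G24313 (r between 0.97 and 0.98). GH9C1 encodes an endoglucanase, IRE a kinase of hair elongation, HA7 a plasma membrane proton pump and ADF11 an actin-depolymerising factor. Over the 8 root arrays of the light set their correlation with the mean of the 10 was between 0.45 (AT5G24313) and 0.96 (NAP1;4), AT1G59725 being well above background on 2 of the 8. These too are descriptions over arrays that share their groups.

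PRP3 is the 1 gene of the 10 with more than 1 probe. Its second probe was far dimmer in the white-light sets, and moved the same way with Pi supply in the WT, from -6.19 to -5.26 in the hy5 set and from -5.34 to -4.18 in the BBX32-SRDX set. In 35S:BBX32-SRDX it stood at -4.99 under Pi deficiency, below the WT. In blue light the second probe read -1.23 and -1.29 under Pi deficiency and -1.48 and -1.56 under Pi sufficiency. In red light the probes went opposite ways, the second having means of -2.35 under Pi deficiency and -2.24 under Pi sufficiency. The probe used had 0.32 and 0.03 there.

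The label of root genes held in the white-light sets and in blue light, and for 9 of the 10 genes at each Pi supply in red light. In roots against shoots, all 10 genes were higher and passed in the WT of each white-light set at both Pi levels and in blue light, with medians between 4.03 and 6.75. Of all genes, 47.2% and 44.7% passed as higher in roots in the hy5 set (Pi deficient and Pi sufficient), 49.3% and 44.5% in the BBX32-SRDX set, and 37.8% and 42.2% in blue light. In red light 9 genes passed under each Pi supply, where 38.0% and 41.1% of all genes did. Roots and shoots lay on separate slides, so organ and slide cannot be told apart. Over all shoot arrays, 77 of 120, 89 of 120 and 10 of 80 values of the 10 genes were well above background in the hy5, BBX32-SRDX and light sets.

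Where no shoot array of a group was well above background, the difference is a lower bound against the lowest signal that was. EXPA18 in Pi-sufficient WT was thus at least 147-fold higher in roots than in shoots of the hy5 set, RSL2 at least 89.4-fold and RSL1 at least 21.5-fold. The exceptions in red light were RSL4 under Pi deficiency and LRX2 under Pi sufficiency. RSL4 read -3.27 and -2.53 in Pi-deficient roots and -3.50 and -0.92 in shoots (-0.69, SE 0.60, adjusted p = 0.343), 1 shoot array lying above both root arrays. LRX2 differed by 1.43 (SE 0.62, adjusted p = 0.0623).

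**Figure D5:**
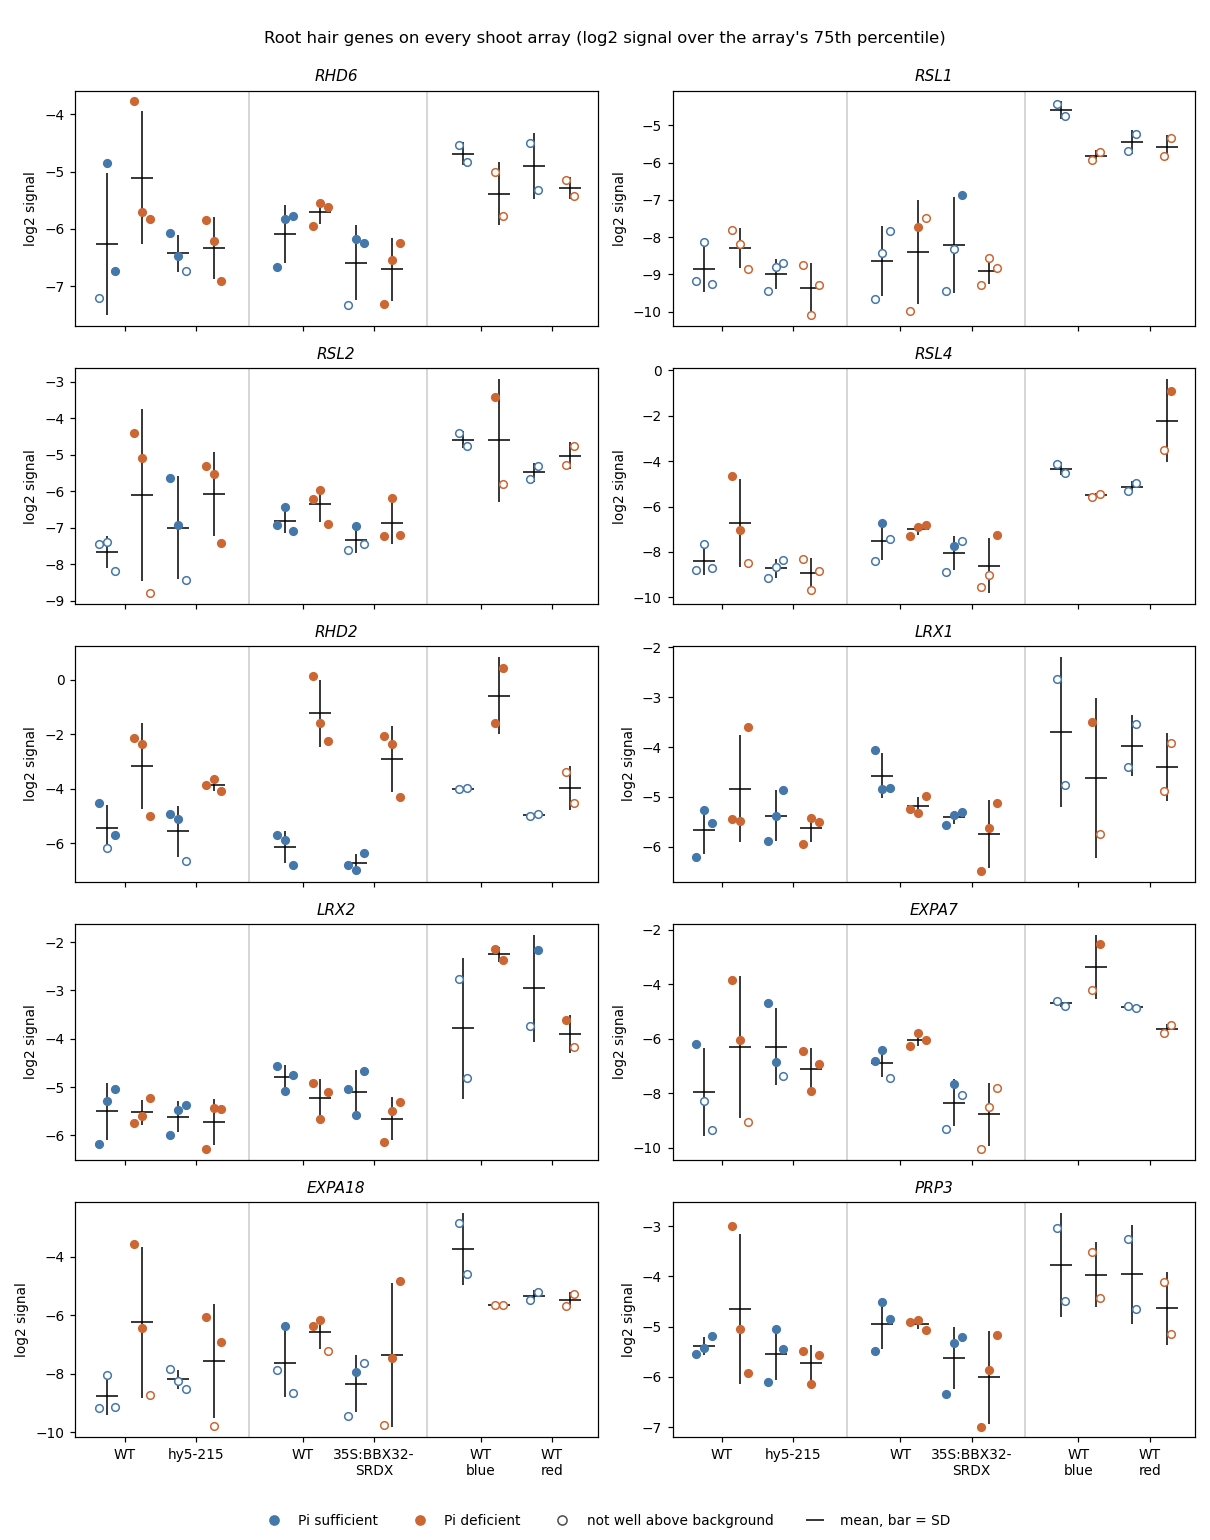
Log2 signal over the 75th percentile of the array (vertical axis of each panel) of the 10 genes on each of the 32 shoot arrays, by line or light (horizontal axis, hy5 set left, BBX32-SRDX set middle, light set right) and Pi supply (colour), with open points for values not well above background. The black mark is the mean and its bar the SD. In the WT of the BBX32-SRDX set RHD2 stood higher in Pi-deficient shoots, at 0.12, -1.59 and -2.25 against -5.71, -5.87 and -6.80. In the WT of the hy5 set its groups overlapped.

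The values of RHD2 separated by Pi supply in shoots of both lines of the BBX32-SRDX set and of hy5-215, but not in WT shoots of the hy5 set. Those in WT shoots of the BBX32-SRDX set were 0.12, -1.59 and -2.25 under Pi deficiency and -5.71, -5.87 and -6.80 under Pi sufficiency. In 35S:BBX32-SRDX shoots they were -2.08, -2.38 and -4.29 against -6.79, -6.97 and -6.36. In hy5-215 shoots they were -3.87, -3.64 and -4.08 against -4.91, -5.12 and -6.64, without overlap in any of these groups. In the WT shoots of the hy5 set the groups overlapped, at -2.15, -2.36 and -4.99 against -4.51, -6.15 and -5.70. Pi supply was not tested in shoots, and the share of all genes without overlap there was not determined. Replicate 1 of the Pi-deficient WT shoots of the hy5 set was the highest array of its set for RSL4 (-4.67), EXPA7 (-3.83), EXPA18 (-3.56) and PRP3 (-3.01), and RHD6 (-3.78).

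Whether a line acted on these genes differently in roots and shoots was tested as an interaction. None of the 10 genes passed by limma for hy5-215 under Pi deficiency (1 with an unadjusted p under 0.05) or Pi sufficiency (0), or for 35S:BBX32-SRDX (1 and 2), where 4.55%, 2.72%, 3.55% and 0.173% of all genes passed. With the slide as a block, RHD6 (0.65, SE 0.17, adjusted p = 0.0258) and EXPA7 (2.02, SE 0.54, adjusted p = 0.0245) passed for 35S:BBX32-SRDX under Pi deficiency, their difference from the WT being more negative in shoots, and 6.50% of all genes passed in that direction. EXPA7 was not well above background on any of the 3 line shoot arrays.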

How the data were processed

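Gene expression was measured on 64 Agilent arrays of 1 colour, each with 1 RNA sample. The authors deposited each array's scanner output, whose processed signal is a background-subtracted intensity with no normalization between arrays, and a table of processed values on a natural log scale, found by comparison with the scanner output. Agilent Feature Extraction 9.1.3.1 is named in the submitters' processing notes, and the file headers give it for the BBX32-SRDX set and 11.5.1.1 for the hy5 and light sets. The RefSeq annotation named a gene for 36309 of 43603 probes (83.3%), 26795 genes in all. Log2 intensity minus the array's 75th percentile was used, spots marked as outliers being left out. For genes with several probes the brightest over the 32 root arrays was taken, and a gene was tested where every array of some group had it well above background.

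Tests were made with limma 3.58.1 in R 4.3.3 (group means, contrasts, eBayes) on the 12 or 8 root arrays of a set, or on its 24 or 16 arrays for organs, with Benjamini-Hochberg adjustment over all genes tested, two-sided, at 0.05. The replicate number equals the slide, and arrays of 1 number deviated together in the white-light sets (root pairs r between 0.30 and 0.67 and between 0.11 and 0.70), so blocked values are given where they change a call. Each group kept 1 place on the slide, so place and group cannot be told apart. Alternatives were quantile normalization, scaling to the median of detected probes, the authors' table, normexp background correction with an offset of 50, no filter, the mean of a gene's probes, the slide as a block, only the groups compared, a 2-fold limit, leaving out each array, and, added after the values were seen, an unadjusted p. The number of arrays limits the precision. All 10 genes are named. Of other hair genes, at most 6 a list that passed are named, and the 10 genes most correlated with the mean of the members. Those named from a list are not always the ones with the largest change. The 10 genes and the lists were chosen with earlier results of these data known.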

Additional observations from a re-analysis of the deposited data

How the results depend on the processing

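Of the values of members that passed, 756 kept direction and call over the alternatives, 72 no longer passed and 2 reversed. These counts include the calls of roots against shoots, where the median log2 fold changes were between 3.98 and 6.75. They are therefore no measure of how firm the calls by line, Pi supply or light were. The 2 that reversed were RSL4 and EXPA18 in roots against shoots in red light under Pi sufficiency, at -0.057 and -0.011 after normexp. With the slide as a replicate block, the genes passing went from 0 to 4 (hy5-215 against the WT, Pi deficient), 1 to 2 (Pi sufficient), 2 to 6 (35S:BBX32-SRDX against the WT, Pi deficient), 5 to 9 (Pi deficiency in hy5-215), 1 to 3 (in 35S:BBX32-SRDX), 7 to 8 (in the WT of the hy5 set), 0 to 1 (blue light), 1 to 2 (red light), 0 to 2 (red against blue light, Pi deficient) and 0 to 2 (35S:BBX32-SRDX between organs, Pi deficient), and no other call changed. In the light set arrays of 1 number did not all deviate together, the lowest root pair having r = -0.01.

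An unadjusted p under 0.05, chosen after seeing the data, gave 4, 2, 5, 8 and 3 genes for the first 5 of these comparisons, then 2 in blue light, 2 in red light, and 4 and 3 for red against blue light under Pi deficiency and sufficiency. With the 2-fold limit, 2 genes passed in the WT of the hy5 set, 1 for 35S:BBX32-SRDX under Pi deficiency, and 0 for hy5-215 under Pi sufficiency and for Pi deficiency in hy5-215 and in 35S:BBX32-SRDX. Fits of only the groups compared gave 0 (hy5-215, Pi sufficient), 1 (35S:BBX32-SRDX, Pi deficient), 0 (Pi deficiency in 35S:BBX32-SRDX) and 2 (in red light). Without the filter on dim probes 3 genes passed in hy5-215 and 0 in red light, where the authors' table also gave 0. Normexp gave 2 for Pi deficiency in 35S:BBX32-SRDX, and the mean of a gene's probes 1 for red against blue light under Pi deficiency. The causes were not tested.

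Leaving out 1 array, without the block, gave 0 to 1 (hy5-215, Pi sufficient), 1 to 2 (35S:BBX32-SRDX, Pi deficient), 2 to 8 (Pi deficiency in the WT of the BBX32-SRDX set), 3 to 5 (in hy5-215), 0 to 0 (in red light) and 0 to 3 (red against blue light, Pi deficient). The share of all calls that were higher moved from 49.8% to 36.7% (hy5-215, Pi sufficient) and from 47.8% to 63.2% (Pi deficiency, blue light) after normexp, and from 64.2% to 49.8% and from 30.9% to 47.6% (red against blue light, Pi deficient and sufficient) in the authors' table. With 2 or 3 arrays a group and a dim signal in the light set, small differences could be missed there.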
